A study of Mus musculus with 14 samples.

Results

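The 9 genes described here encode proteins that hold back or shape NF-kB signaling: Nfkbia, Nfkbib, Nfkbie, Nfkbiz, Bcl3, Tnfaip3, Tnip1, Tnip3 and Cyld. They were taken by gene symbol from 17656 genes measured by RNA-seq in mouse liver, and all 9 were found in every library. The 14 libraries, each from 1 mouse aged 8 weeks, form 4 groups: 3 WT saline mice, 3 KO saline mice, 4 WT ConA mice and 4 KO ConA mice. WT is wild type C57BL/6, and KO stands for mice labelled Ythdf1-/- on the same background, which carry a germline deletion made with CRISPR/Cas9 in all of their cells. YTHDF1 is a protein that binds mRNA carrying the m6A mark. ConA, concanavalin A, is a plant lectin that activates T cells and injures the liver. It was given into the tail vein at 8 mg/kg, the saline groups received saline by the same route, and livers were taken 8 hours later, so each mouse contributes 1 time point. The comparison asks whether the liver's response to ConA differs when YTHDF1 is missing. Levels are given as TPM, a transcript's share of all transcripts in the library after correction for length. Ythdf1 mRNA itself lay between 12.03 and 13.92 TPM in WT saline mice and between 18.44 and 20.77 TPM in KO saline mice. After ConA the limits were 18.74 and 25.63 TPM in WT, against 15.54 and 26.17 TPM in KO. A level summed over the whole gene does not show whether an edited exon is missing, so these values do not check the genotype labels.

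NF-kB is a family of dimeric transcription factors that inhibitors of kappaB (IkB proteins) keep in the cytoplasm. Signals from receptors such as those for TNF and interleukin-1 pass through chains of ubiquitin to the IKK complex, which marks IkB for destruction and sets NF-kB free. Free NF-kB then switches on several of its own inhibitors, which limits how long the signal lasts. In the liver, TNF and bacterial products from the gut are well known triggers, and hepatocytes, Kupffer cells and endothelial cells all respond. The 9 genes act at different points of this loop. Nfkbia (IkB-alpha), Nfkbib (IkB-beta) and Nfkbie (IkB-epsilon) encode the cytoplasmic inhibitors. Nfkbiz (IkB-zeta) and Bcl3 encode nuclear IkB family proteins that bind NF-kB at its target genes and can raise or lower their transcription. Tnfaip3 encodes A20, an enzyme that edits ubiquitin chains, Tnip1 and Tnip3 encode the A20-binding proteins ABIN-1 and ABIN-3, and Cyld encodes a deubiquitinase of the same signaling complexes.

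Several of these genes carry the DNA element that NF-kB binds close to where their transcription starts. RefSeq promoter windows of build GRCm38.p6, from 250 bases before to 50 bases after the start, were found for 8 of the 9 genes by symbol (9 windows, since Tnfaip3 has 2). The windows were searched on both strands for the kappaB decamer consensus, and 7 genes held it. The same consensus is found in 8.46% of 32841 promoter windows of this length. The matches are shown because 5 of these genes rose after ConA and 2 did not or could not be tested. Each stretch of 30 bases is written in the direction of the gene with the matching bases in capitals:
Nfkbia, chr12:55492657-55492686, minus strand: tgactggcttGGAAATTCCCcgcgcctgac
Nfkbie, chr17:45555584-45555613, plus strand: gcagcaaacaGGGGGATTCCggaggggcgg
Bcl3, chr7:19822734-19822763, minus strand: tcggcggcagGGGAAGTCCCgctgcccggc
Tnfaip3 far match, chr10:19015516-19015545, minus strand: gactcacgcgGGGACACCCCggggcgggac
Tnfaip3 near match, chr10:19015403-19015432, minus strand: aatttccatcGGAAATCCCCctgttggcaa
Tnip1, chr11:54962978-54963007, minus strand: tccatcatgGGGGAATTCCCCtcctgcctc
Tnip3, chr6:65590334-65590363, plus strand: gagacatcctGGGAAATCCCagttacatgg
Cyld, chr8:88696863-88696892, plus strand: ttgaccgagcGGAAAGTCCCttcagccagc

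The match nearest to a start was that of Bcl3, which began at position 3 inside the transcribed sequence. The near Tnfaip3 match began at position -12 and the Nfkbia match at -29, directly upstream of the start. In Tnip1, 3 overlapping matches filled 12 bases from position -58. Only for this window was a stretch just after the start found in no GENCODE transcript of the gene. Its positions are therefore unsure. Positions in other genes also depend on the start used: the GENCODE gene of Tnfaip3 extends to chr10:19015657, beyond both matches. That of Tnip3 begins at chr6:65525313, upstream of the window, and the RefSeq gene of Cyld begins at chr8:88696878, inside the stretch shown. The Tnip3 match began at -54, that of Nfkbie at -106, the far Tnfaip3 match at -125 and that of Cyld at -155. The Nfkbib window and the other Tnfaip3 window held no match, and Nfkbiz had no window. A match describes the letters only and not whether NF-kB binds there.

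**Figure D1:**
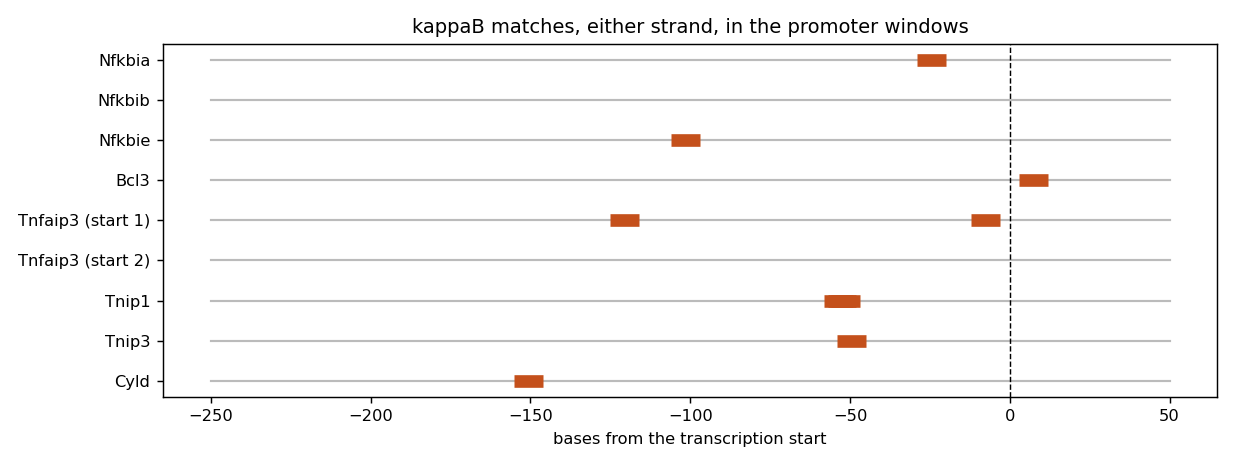
Positions of kappaB matches on either strand (bars, to scale) in the promoter windows of 8 of the 9 genes, with the distance from the transcription start in bases on the x axis and 1 line for each window. Matches lie between position -155 (Cyld) and position 3 (Bcl3), and Nfkbib and the other Tnfaip3 start have none.

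All 9 genes are multi-exon genes on the GENCODE annotation of GRCm38, with 6 (Nfkbia, Nfkbie) to 19 (Tnip1) exons and main transcripts of 1578 (Nfkbia) to 8022 bases (Cyld). Of the 50-base stretches in the longest coding transcript, 99.3 to 100% were found in no other gene for 8 of the 9 genes. The exception was Nfkbib (chr7:28758251-28767512), for which 86.7% were unique. Its exons overlap those of Sirt2 and Ccer2 on the other strand, and whether the counting used strand is not given in the sources used here, so the level of Nfkbib is uncertain. Sirt2 moved the other way from Nfkbib, at 64.49 to 72.11 TPM in the 6 saline libraries and 30.69 to 52.67 TPM in the 8 ConA libraries. Bcl3 shares exon sequence with a non-coding gene on the other strand over a much smaller stretch (99.6% unique).

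In saline livers the levels spanned a wide range, and the order was the same in WT and KO. TPM is a level per length, so genes can be compared within a library. In WT saline, Nfkbia led with 43.2 ± 1.84 TPM (SD, n = 3), followed by Nfkbib with 24.1 ± 0.511 and Bcl3 with 16.0 ± 1.78. Tnip1, Cyld, Nfkbiz and Nfkbie followed at 6.49, 4.35, 3.89 and 1.07 TPM, and Tnfaip3 (0.540) and Tnip3 (0.00667) were lowest. Only Cyld and Nfkbiz, neighbours in this order, had overlapping ranges in WT saline, and no neighbours overlapped in KO saline. After ConA the order changed. Bcl3 (119 ± 17.2 TPM, SD, n = 4) and Nfkbia (114 ± 24.0) were highest in WT ConA with overlapping ranges, and Nfkbia (146 ± 14.9) stood above all others in KO ConA. Tnfaip3 moved from the eighth to the fifth place in both genotypes, where it exchanged ranks with Cyld.

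**Figure D2:**
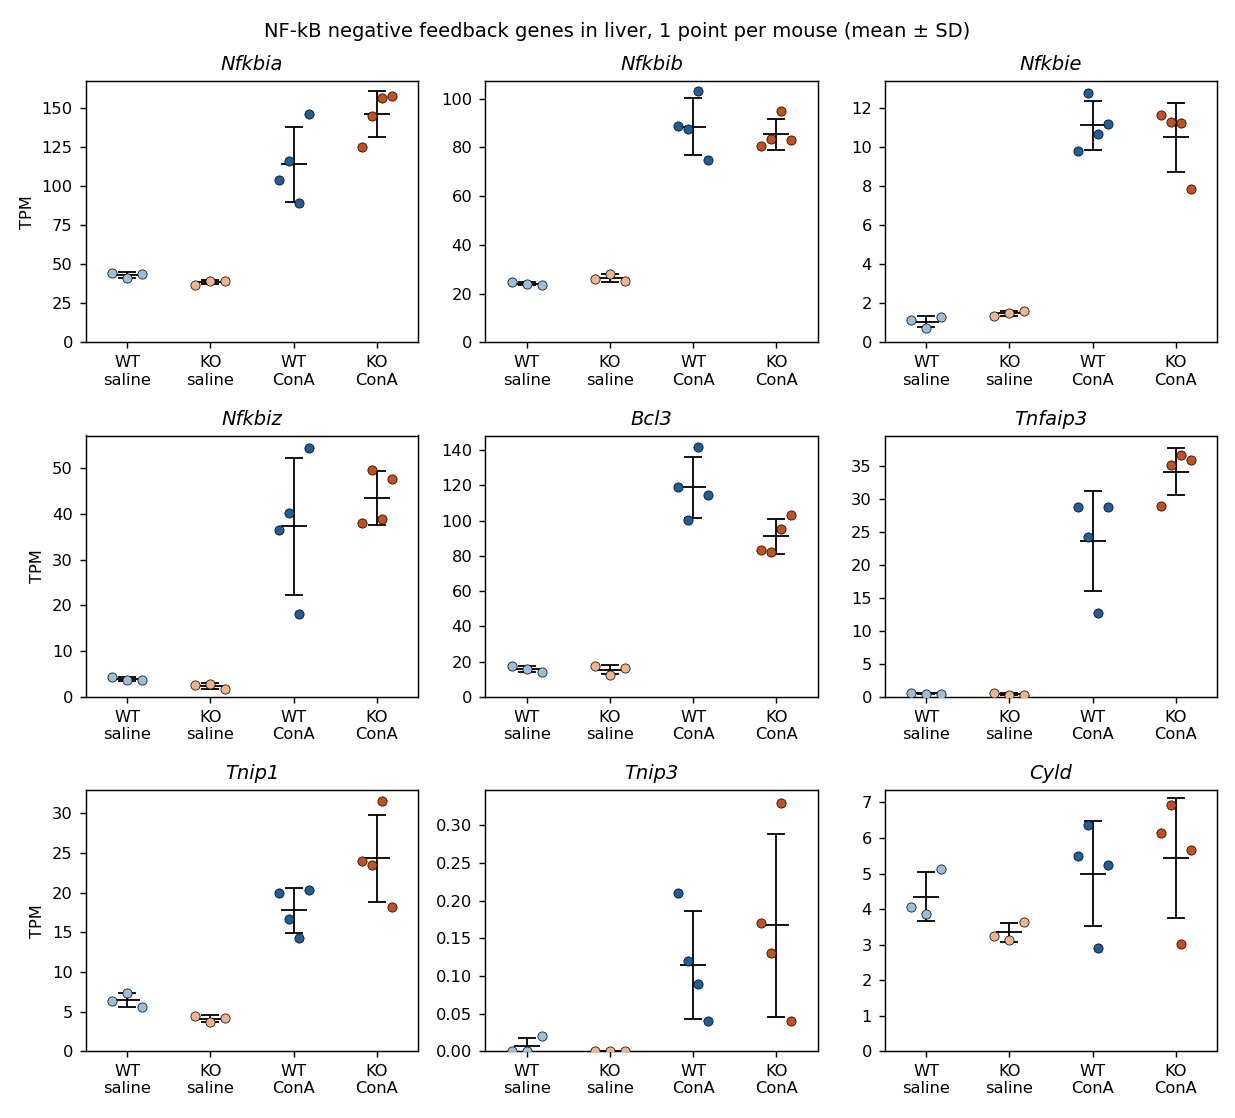
TPM of each of the 9 genes on a linear axis from 0, with 1 point per mouse, horizontal lines for the group means and whiskers for the SD (3 mice in saline groups, 4 in ConA groups). For 7 genes all ConA points lie above all saline points in both genotypes, the Cyld points overlap, and Tnip3 reaches at most 0.33 TPM.

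ConA raised 7 of the 8 genes tested in WT mice and the same 7 in KO mice: Nfkbia, Nfkbib, Nfkbie, Nfkbiz, Bcl3, Tnfaip3 and Tnip1. None fell in either genotype, Cyld did not pass, and Tnip3 was too low to be tested. Differences were tested with limma on log2(TPM + 1). A call needs an adjusted p (Benjamini-Hochberg, over all genes tested) under 0.05. A gene under 1 TPM in every saline library could be tested here only if ConA raised it. Among the 8 genes this was Tnfaip3, and it holds for the gene lists below as well. ConA changed much of the liver transcriptome: 53.0% of all tested genes were called in WT and 22.0% were called higher, against 64.6% and 33.9% in KO. The median log2 fold change of the 8 genes was 2.19 in WT and 2.24 in KO, while that of all tested genes was -0.07 and 0.07.

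Among the cytoplasmic inhibitors, Nfkbia had the highest level and the smallest relative rise in WT. It was 44.71, 41.16 and 43.76 TPM in WT saline and 103.79, 116.19, 89.43 and 145.97 TPM in WT ConA. KO values were 37.00, 39.44 and 39.49 TPM in saline and 125.24, 145.05, 156.22 and 157.50 TPM in ConA. No ConA library reached down to a saline library in either genotype, and 3 of 4 KO ConA libraries lay close to or above the highest WT ConA library. The rise was 2.63-fold in mean TPM in WT (log2 fold change 1.36 ± 0.17 SE, limma adjusted p = 1.45e-04) and 3.78-fold in KO (1.89 ± 0.12, limma adjusted p = 2.71e-07).

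Nfkbib, which encodes IkB-beta, was 24.70, 23.96 and 23.72 TPM in WT saline against 88.62, 87.40, 103.21 and 74.85 TPM in WT ConA, a 3.67-fold rise. In KO mice it reached 26.04, 28.18 and 25.03 TPM in saline and 80.37, 83.62, 94.77 and 82.83 TPM in ConA, a 3.23-fold rise. The ConA libraries of both genotypes occupied the same range. Its log2 fold change was 1.82 ± 0.13 SE in WT and 1.65 ± 0.11 in KO (limma adjusted p = 7.38e-06 and 5.21e-07). Nfkbib is the gene of this group without a kappaB match in its window.

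Nfkbie, which encodes IkB-epsilon, started lowest of the 3 inhibitors and rose most in relative terms. It was 1.15, 0.74 and 1.32 TPM in WT saline and 9.81, 12.78, 10.69 and 11.19 TPM in WT ConA. The KO libraries gave 1.36, 1.53 and 1.62 TPM in saline and 11.66, 11.27, 11.23 and 7.87 TPM in ConA. The last of these, KO ConA replicate 4, lay well below its 3 group mates. The rise was 10.4-fold in mean TPM in WT and 6.99-fold in KO (log2 fold changes 2.55 ± 0.16 SE and 2.19 ± 0.17, limma adjusted p = 2.76e-06 and 1.32e-06).

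Of the nuclear IkB genes, Nfkbiz was 4.38, 3.65 and 3.63 TPM in WT saline and 36.40, 40.09, 18.04 and 54.45 TPM in WT ConA. Its KO levels were 2.55, 2.93 and 1.65 TPM in saline and 38.08, 49.46, 38.77 and 47.70 TPM in ConA. The ConA levels overlapped between genotypes, with WT ConA replicate 3 far below the rest, while every KO saline library lay below every WT saline library. The log2 fold change after ConA was 2.87 ± 0.31 SE in WT and 3.73 ± 0.17 in KO (limma adjusted p = 6.35e-05 and 3.85e-08), which is 9.58-fold and 18.3-fold in mean TPM.

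Bcl3 was among the most abundant of the 9 genes after ConA. It was 17.78, 16.12 and 14.23 TPM in WT saline and 119.03, 100.19, 141.74 and 114.46 TPM in WT ConA. KO livers had 17.41, 12.65 and 16.48 TPM in saline and 83.42, 82.19, 95.34 and 103.20 TPM in ConA. KO ConA replicate 4 was the only KO library within the WT ConA range. The rise was 7.41-fold in mean TPM in WT and 5.87-fold in KO (log2 fold changes 2.81 ± 0.15 SE and 2.48 ± 0.14, limma adjusted p = 1.15e-06 and 1.58e-07).

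Tnfaip3, the A20 gene, had the largest relative rise of the 8 genes tested in both genotypes. It was 0.58, 0.52 and 0.52 TPM in WT saline and 28.86, 24.28, 12.70 and 28.75 TPM in WT ConA. In KO it was 0.57, 0.29 and 0.30 TPM in saline and 28.90, 35.25, 36.71 and 35.95 TPM in ConA. Every ConA library was above 12 TPM from a saline level below 1 TPM. Mean TPM rose 43.8-fold in WT and 88.5-fold in KO. On the log2(TPM + 1) scale, which understates changes of genes this low in saline, the rise was 3.94 ± 0.26 SE in WT and 4.67 ± 0.16 in KO (limma adjusted p = 4.22e-06 and 3.89e-09).

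Tnip1, which encodes the A20 partner ABIN-1, was 6.41, 7.41 and 5.64 TPM in WT saline and 19.96, 16.63, 14.34 and 20.28 TPM in WT ConA. In KO it was 4.51, 3.67 and 4.19 TPM in saline and 24.02, 23.53, 31.55 and 18.15 TPM in ConA. KO libraries were below all WT libraries in saline, and 3 of 4 were above all WT libraries after ConA. The rise was 2.74-fold in mean TPM in WT and 5.90-fold in KO (log2 fold changes 1.32 ± 0.16 SE and 2.28 ± 0.18, limma adjusted p = 1.53e-04 and 1.54e-06).

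The other A20 partner gene, Tnip3, was listed at 0 in 2 of 3 WT saline libraries (0.02 TPM in the third) and in all KO saline libraries. It was 0.21, 0.12, 0.09 and 0.04 TPM in WT ConA and 0.17, 0.13, 0.33 and 0.04 TPM in KO ConA. Both ConA groups lay above both saline groups, but no library reached the 1 TPM that the test required.

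Cyld, the deubiquitinase gene, was 4.06, 3.85 and 5.13 TPM in WT saline and 5.49, 6.35, 2.90 and 5.24 TPM in WT ConA. In KO it was 3.24, 3.14 and 3.65 TPM in saline and 6.15, 6.93, 3.03 and 5.67 TPM in ConA. In each genotype, replicate 3 was the lowest ConA library and lay below all saline libraries of its genotype, while the other 3 ConA libraries lay above them. The log2 fold change was 0.13 ± 0.22 SE in WT (limma adjusted p = 0.642) and 0.53 ± 0.23 in KO (limma adjusted p = 0.0607), neither of which was called. Without WT ConA replicate 3 the WT value was 0.33 (limma adjusted p = 0.0486), and without KO ConA replicate 3 the KO value was 0.74 (limma adjusted p = 5.91e-04), so whether Cyld was called higher rested on these libraries.

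**Figure D3:**
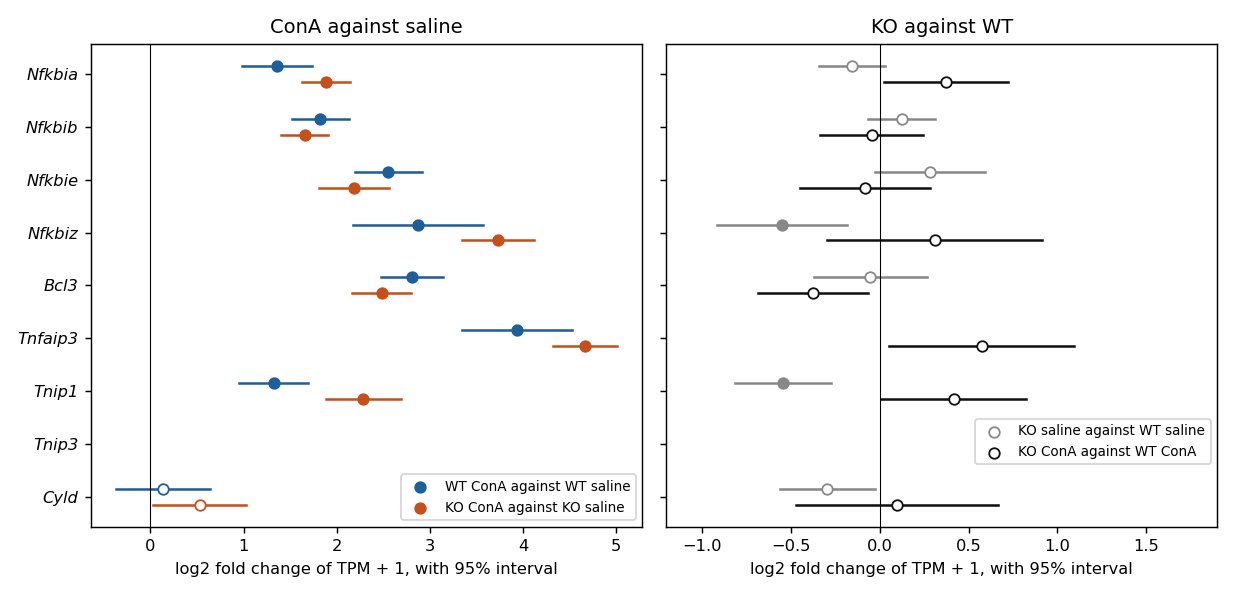
Log2 fold changes of TPM + 1 with their 95% intervals from limma, for ConA against saline in each genotype (left) and KO against WT in each treatment (right), with filled points for called genes and open points for genes not called. On the left 7 genes sit right of 0 in both genotypes and Cyld is open in both, and on the right only Nfkbiz and Tnip1 in saline are filled.

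The 2 ConA libraries named replicate 3 stood apart from their group mates across the transcriptome. The median absolute log2 difference was 0.259 to 0.397 in pairs with a replicate 3 and 0.128 to 0.228 in the other ConA pairs. WT ConA replicate 3 was the lowest of its group for 5 of the 9 genes and the highest for Nfkbib and Bcl3. Against the mean of its 3 group mates it was at 0.413 for Nfkbiz, 0.465 for Tnfaip3 and 0.509 for Cyld, whose transcripts have 4115, 4422 and 8022 bases. The values for Nfkbib and Bcl3 were 1.23 and 1.27, and their transcripts have 2061 and 1850 bases. Nfkbia, with the shortest transcript (1578 bases), was at 0.733, Tnip1 (2973 bases) at 0.756 and Nfkbie (2435 bases) at 0.949, so the values did not simply follow length. KO ConA replicate 3 was at 0.485 for Cyld but at 1.10 for Tnfaip3 and 1.44 for Tnip1. The part of transcript length in these differences was not tested. All 7 genes that rose were also called without either or both of these libraries.

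After saline, KO livers had lower levels of Nfkbiz and Tnip1 than WT livers. Nfkbiz was 2.38 ± 0.657 TPM (SD, n = 3) in KO saline and 3.89 ± 0.427 TPM in WT saline, a log2 difference of -0.55 ± 0.16 SE (limma adjusted p = 0.0485). Tnip1 was 4.12 ± 0.424 TPM against 6.49 ± 0.887 TPM, a log2 difference of -0.54 ± 0.12 SE (limma adjusted p = 0.0253). These were 2 of 7 genes tested, while 19.2% of all genes tested were called. That background rests on single libraries too: of 2009 calls over all genes, 51 were left without WT saline replicate 2, 45 without WT saline replicate 3, 286 without KO saline replicate 1 and 640 without KO saline replicate 2. In 6 of the 7 the KO and WT libraries did not overlap, with Nfkbia, Nfkbiz, Tnip1 and Cyld lower in KO and Nfkbib and Nfkbie higher, while 42.3% of all tested genes did not overlap. Tnfaip3 and Tnip3 were not tested because both were below 1 TPM in all saline libraries. Both calls were unstable: that of Nfkbiz was lost when any 1 of the 6 libraries was left out (limma adjusted p between 0.0521 and 0.142). The Tnip1 call was kept without WT saline replicate 1 and without KO saline replicate 3 but lost without WT saline replicate 2 or 3 or KO saline replicate 1 or 2 (limma adjusted p between 0.0564 and 0.105). WT saline replicates 2 and 3 were closer to each other (median absolute log2 difference 0.0793) than any other pair, and with both averaged and counted as 1 mouse 49 genes were called in all, and neither of these (limma adjusted p = 0.133 for Nfkbiz and 0.0836 for Tnip1).

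After ConA, none of the 8 genes tested differed between KO and WT at the threshold. Of all 10519 genes tested in this comparison, 0.428% were called. Without adjustment, 4 of the 8 genes (Bcl3, Tnfaip3, Nfkbia and Tnip1) had a limma p under 0.05, against 16.7% of all genes tested, and limma was the only tool used for single genes. Tnfaip3 was the 1 gene of 8 whose libraries did not overlap, against 10.5% of all tested genes. It was 34.2 ± 3.58 TPM (SD, n = 4) in KO ConA and 23.6 ± 7.60 TPM in WT ConA (log2 difference 0.57 ± 0.24 SE, 95% interval 0.06 to 1.09, limma adjusted p = 0.251). The lowest KO library (28.90 TPM) was barely above the highest WT library (28.86 TPM). Nfkbia (0.37 ± 0.16, limma adjusted p = 0.268) and Tnip1 (0.42 ± 0.19, limma adjusted p = 0.289) had higher means in KO, and Bcl3 had a lower mean (-0.38 ± 0.14, limma adjusted p = 0.211). The values of Nfkbib (-0.04 with a 95% interval from -0.33 to 0.24) and Nfkbie (-0.08, from -0.45 to 0.28) were closest to 0. For Nfkbiz (0.31, from -0.30 to 0.91) and Cyld (0.10, from -0.47 to 0.67) the intervals were wide and covered differences of either sign.

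The difference between the ConA responses of KO and WT mice was tested as an interaction over all 14 libraries. Tnip1 was the only one of 8 genes tested that passed, with a response larger in KO by 0.96 ± 0.25 SE on the log2 scale (limma adjusted p = 0.0429), while 4.78% of all tested genes were called. These 541 calls over all genes fell to 22 to 63 without any 1 of WT saline replicate 2 or 3 and KO saline replicate 1 or 2, to 82 without KO ConA replicate 4 and to 186 without KO ConA replicate 2, and rose to 1591 without both ConA replicates 3. The Tnip1 value is made of the lower Tnip1 level in KO saline (-0.54) and the higher mean in KO ConA (0.42). The values for Nfkbiz (0.86), Tnfaip3 (0.73) and Nfkbia (0.53) pointed the same way and did not pass (limma adjusted p = 0.174, 0.163 and 0.126), and that of Bcl3 was -0.32 (limma adjusted p = 0.329). The Tnip1 call held without WT ConA replicate 1, WT ConA replicate 4 or KO ConA replicate 3. It was lost when any 1 of the other 11 libraries was left out, with limma adjusted p between 0.0501 (WT ConA replicate 3) and 0.125 (WT saline replicate 2), and also when the libraries were rescaled by their median ratio (0.84, limma adjusted p = 0.0795).

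The mRNA of the cytoplasmic inhibitors can be set against that of the NF-kB subunits within each library, where rescaling has no effect. Such a ratio does not measure how much NF-kB is held back. Its inhibitor sum includes Nfkbib and its subunit sum Nfkb2, and exons of both overlap genes on the other strand. NF-kB subunit mRNA rose with ConA as well. Rela, which encodes p65, was 21.28 to 24.09 TPM across the 6 saline libraries. After ConA it lay between 81.71 and 92.52 TPM in WT mice and between 93.57 and 102.59 TPM in KO mice. Relb was at 1.09 TPM or less in saline and between 14.72 and 23.60 TPM after ConA. Nfkb2 was between 3.12 and 5.87 TPM in saline and between 37.79 and 49.42 TPM after ConA. Nfkb1, which encodes p105 and p50, was at 7.33 TPM or below in saline, and ConA brought it to between 13.41 and 23.84 TPM in WT and between 25.77 and 33.54 TPM in KO. Rel stayed at 3.51 TPM or below. All 5 subunit genes were called higher in both genotypes. Rel and Relb in WT, and Rel in KO, were under 1 TPM in all saline libraries. They could be tested only because ConA raised them, so a fall could not have been called.

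The summed TPM of Nfkbia, Nfkbib and Nfkbie rose less than that of the 5 subunit genes. The sum of the inhibitors went from 68.4 ± 2.37 TPM (SD, n = 3) in WT saline to 213 ± 13.9 TPM (n = 4) in WT ConA. In KO mice it was 64.4 to 69.2 TPM with saline and 242 ± 18.8 TPM with ConA. The sum of the subunits went from 34.9 ± 0.980 to 167 ± 8.43 TPM in WT. In KO mice it was 36.3 ± 1.94 TPM with saline and 196 to 203 TPM with ConA. The ratio of inhibitors to subunits was 1.97, 1.89 and 2.03 in WT saline, 1.69, 2.02 and 1.80 in KO saline, 1.29, 1.28, 1.24 and 1.31 in WT ConA, and 1.11, 1.18, 1.32 and 1.22 in KO ConA. All 8 ConA libraries were below all 6 saline libraries. The log2 ratio fell by 0.61 (exact two-sided permutation test with labels permuted within genotype, p = 8.16e-04, the smallest that its 1225 arrangements allow, adjusted over 6 tests p = 0.00490), with -0.61 in WT and -0.60 in KO. KO and WT did not differ detectably in this ratio (log2 difference -0.09, exact permutation p = 0.0843, adjusted p = 0.229 over all 14 libraries, and -0.08, exact permutation p = 0.200, adjusted p = 0.271 after ConA). These are levels of mRNA. IkB protein, which is destroyed when the pathway is active, is not part of the sequencing data. By immunoblot of liver, the study reports more phosphorylated IkB-alpha in KO than in WT after ConA. It reports no such difference for phosphorylated p65. The mRNA ratio does not address either.

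The make-up of the inhibitor mRNA varied most in WT ConA. Among saline mice, Nfkbia made up 62.5 to 63.6% of the summed TPM in WT and 57.0 to 59.7% in KO. Among ConA mice its share was between 44.0 and 62.9% in WT and between 57.6 and 63.5% in KO. The lowest share, 44.0%, came from WT ConA replicate 3, and there Nfkbib made up 50.8%. Nfkbie made up 1.12 to 2.45% in saline and 3.17 to 5.91% after ConA. The share of Nfkbia did not pass a test for ConA against saline (difference -3.98 percentage points, exact permutation p = 0.226, adjusted p = 0.271) or for KO ConA against WT ConA (7.30 percentage points, exact permutation p = 0.114, adjusted p = 0.229).

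**Figure D4:**
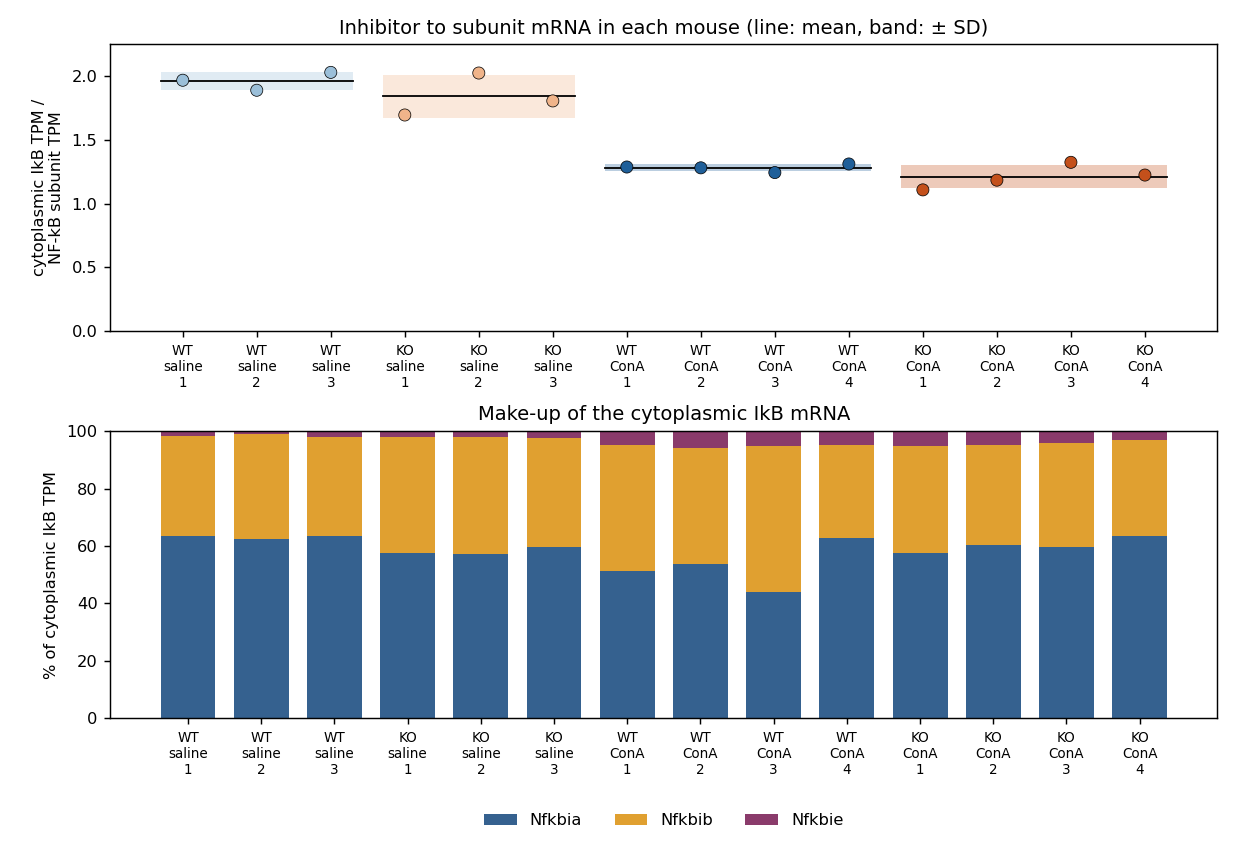
Top, the ratio of summed cytoplasmic IkB TPM (Nfkbia, Nfkbib, Nfkbie) to summed NF-kB subunit TPM in each of the 14 mice, with group means (lines) and SD (bands), on an axis from 0. Bottom, the percent of the IkB sum from each gene in stacked bars. The ratio lies between 1.69 and 2.03 in saline and between 1.11 and 1.32 after ConA, and the Nfkbia share ranges most widely in WT ConA.

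The wider pathway shows where the 9 genes sit. Of 12 other genes known to restrain NF-kB, 4 were called higher and 1 lower of 11 tested in WT, and 7 higher and 1 lower of 10 tested in KO. Of all tested genes, 53.0% were called in WT (22.0% higher) and 64.6% in KO (33.9% higher), and the counts of each list below stand beside these shares. In each saline group 2 of the 12 were under 1 TPM in all libraries and could be tested only if ConA raised them. Irak3, which encodes an inhibitory kinase-like protein of Toll-like and interleukin-1 receptor signaling, was at 0.28 TPM or below in WT saline but between 17.82 and 31.01 TPM in WT ConA (log2 fold change 4.13). Zc3h12a, which encodes the mRNA-cleaving protein regnase-1, was 1.73 to 1.93 TPM and 15.83 to 22.71 TPM in these groups (log2 fold change 2.78). Tnip2, the gene of the remaining ABIN protein, rose by 1.19 in WT and 1.61 in KO. Its ConA levels did not overlap between KO (9.82 to 12.53 TPM) and WT (7.22 to 8.57 TPM), though the test did not pass (0.37, limma adjusted p = 0.235). The median log2 fold change of this list, 0.23 in WT and 0.58 in KO, was below the 2.19 and 2.24 of the 8 negative feedback genes tested.

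Of 8 genes for subunits and the IKK kinase complex, 6 were called higher in WT and 7 in KO. These counts include Rel and, in WT, Relb, with the limit of the filter given above. The log2 fold change of the IKK kinase gene Chuk was -0.62 in WT and -0.29 in KO, neither called. In WT, all ConA libraries (19.69 to 52.19 TPM) nevertheless lay below all saline libraries (53.39 to 57.01 TPM) for Chuk. The value of the other kinase gene, Ikbkb, was -0.26 in WT, not called, and 0.54 in KO, called higher. Ikbkg, the gene of the regulatory subunit NEMO, was called higher in both (0.60 and 1.13). In saline all 3 IKK genes were called lower in KO than in WT, by -0.32 for Chuk, -0.43 for Ikbkb and -0.60 for Ikbkg. None of these 3 calls was kept without WT saline replicate 2, without WT saline replicate 3 or with both averaged (limma adjusted p between 0.0760 and 0.168), and that of Chuk was lost without any 1 of the 6 saline libraries.

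Upstream, 12 of 23 receptor and adaptor genes tested were called higher and 2 lower in WT, and 15 higher and 3 lower of 24 in KO. Of all tested genes, 53.0% were called in WT (22.0% higher) and 64.6% in KO (33.9% higher). In all libraries of WT saline 3 of the 24 were under 1 TPM, and 2 in KO saline. These could be tested only if ConA raised them. The interleukin-1 receptor gene Il1r1 rose by 3.32 and its adaptor Myd88 by 2.06 on the log2 scale in WT. Sharpin, which encodes part of the complex that builds linear ubiquitin chains, had means of 21.6 TPM in KO ConA and 37.5 TPM in WT ConA without overlap, and the test did not pass (log2 difference -0.75, limma adjusted p = 0.0718). Of 7 ligand genes only Tnf, Ltb and Il1b could be tested in WT, and all 3 rose, as did 3 of 4 tested in KO. Tnf and Ltb in WT, and Tnf and Il1b in KO, were under 1 TPM in all saline libraries. They could be tested only because ConA raised them, so a fall could not have been called. Tnf was at 0.05 TPM or less in all saline libraries, and after ConA it lay between 3.37 and 5.64 TPM in WT and averaged 3.94 TPM in KO. Of 20 other NF-kB target genes, all 16 tested in WT and all 18 tested in KO were called higher. Their median log2 fold changes were 5.01 and 4.53, above those of the 8 negative feedback genes tested. In each saline group 7 of the 20 were under 1 TPM in all libraries and could be tested only if ConA raised them. No fall could have been called for these, so the full count and the medians rest partly on the filter. The target genes were led in WT by Saa3 (8.85), which encodes an acute-phase protein, and Lcn2 (7.78), which encodes lipocalin-2. No gene of these 5 lists was called in KO ConA against WT ConA, where 0.428% of all tested genes were called. The lowest p of the target genes in that comparison was that of Sele, the E-selectin gene, with means of 2.54 TPM in KO and 0.767 TPM in WT (log2 difference 1.01, limma adjusted p = 0.0651). Sele passed the 1 TPM filter only through KO ConA (1.73 to 3.34 TPM, against 0.26 to 1.31 TPM in WT ConA). A lower level in KO could therefore not have been called. In the interaction, 3 genes of the lists were called: Sharpin (-0.89), Sele (1.01) and Irf1 (1.06), an interferon-regulated transcription factor gene that is named because of its value. Sharpin was the only call of 24 receptor and adaptor genes tested, and Sele and Irf1 were those of 18 target genes. The other lists had none, and 4.78% of all tested genes were called. None of the 3 was called without WT saline replicate 2 or 3 or KO saline replicate 1 or 2 (limma adjusted p between 0.0579 and 0.113). Sele again passed the filter only through KO ConA. Its call was also lost without a filter (limma adjusted p = 0.0559), with 0.1 added to TPM in place of 1 (limma adjusted p = 0.0966) and after rescaling (limma adjusted p = 0.0518). Of the named genes outside the 9, Nfkb2, Ikbkg, Irak3, Myd88 and Il1b have exons that overlap a gene on the other strand, so their levels carry the same uncertainty as that of Nfkbib.

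**Figure D5:**
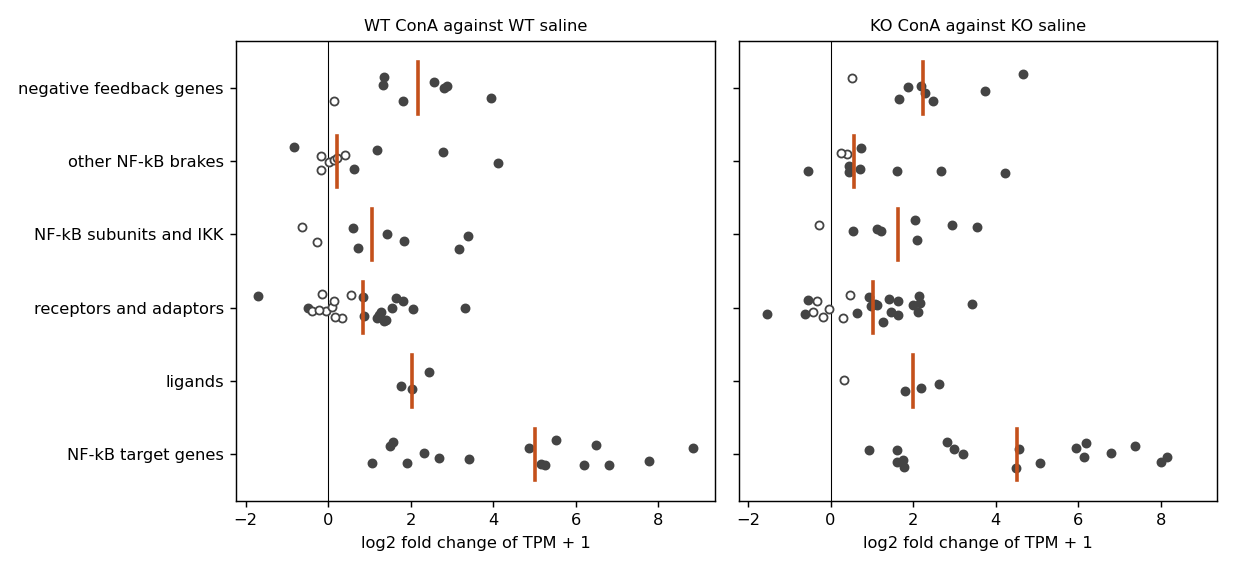
Log2 fold changes of TPM + 1 after ConA in WT (left) and KO (right) for the negative feedback genes and 5 lists of the NF-kB pathway, with 1 point per tested gene (filled when called, open when not) and a vertical bar at the list's median. The medians of the negative feedback genes, 2.19 and 2.24, lie above those of the other restraining genes and below those of the target genes.

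The summed levels of cell type markers moved with ConA, too. The summed TPM of 6 neutrophil markers was 5.27 to 11.0 in saline and rose to between 315 and 554 in WT and between 410 and 944 in KO after ConA. In each genotype 5 of the 6 genes were called higher. Of the 6, 1 was under 1 TPM in all saline libraries of each genotype and could be tested only if ConA raised it. The sum of 6 Kupffer cell markers lay between 25.3 and 105 TPM in saline and between 4.74 and 28.4 TPM after ConA, with 5 of 6 called lower in WT and 3 of 6 in KO. The sum of 6 hepatocyte markers was 99636 to 126137 TPM in saline and 48282 to 77324 TPM after ConA, which makes hepatocyte transcripts abundant in all libraries. Of these markers 5 were called lower in each genotype, and the other was called higher in KO only. The 7 T cell markers summed to 1.51 to 3.22 TPM in saline, and after ConA to between 3.09 and 4.69 TPM in WT and between 5.36 and 8.66 TPM in KO. Of the 7, 5 were under 1 TPM in all WT ConA libraries and 3 in all KO ConA libraries, too low to compare. The 4 B cell markers summed to 0.41 to 4.11 TPM throughout. The 6 sinusoidal endothelial markers summed to between 14.1 and 22.6 TPM in WT and between 23.6 and 41.0 TPM in KO with saline. After ConA these limits were 11.3 and 28.9 TPM in WT and 13.0 and 35.8 TPM in KO. These sums hide opposite directions: ConA against saline, 2 of the 6 endothelial markers were called higher and 3 lower in each genotype. In WT saline 1 of the 6 was under 1 TPM in all libraries and could be tested only if ConA raised it. In KO saline against WT saline, where Nfkbiz and Tnip1 were lower, 3 of 5 endothelial markers tested were called higher (Clec4g by 0.98, Oit3 by 0.81 and Pecam1 by 0.57), calls that were lost without WT saline replicate 2 or 3 or KO saline replicate 1. All 6 Kupffer cell markers had lower means there (median log2 difference -0.63, none called), with sums of 25.3 to 56.1 TPM in KO and 59.8 to 105 TPM in WT. Their part in the lower Nfkbiz and Tnip1 levels was not tested. No marker list had a gene called in KO ConA against WT ConA, where 0.428% of all tested genes were called. Few could be tested there in some lists: 0 of 4 B cell, 1 of 7 T cell, 3 of 6 Kupffer cell and 4 of 6 endothelial markers. None of the markers was at 0 in all libraries of a group. In whole liver, fewer cells of a type and less RNA per cell cannot be told apart, and the part of the marker shifts in the rise of the 7 genes was not tested.

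For each of the 8 genes tested in the interaction fit, the genes with the most similar profile were found as those with the smallest root mean square difference of log2(TPM + 1) over the 14 libraries, after each gene was centred on its mean. The nearest 3 of Nfkbia were Sod2 (root mean square difference 0.144), Slc12a4 and Prmt6, and Sod2 is itself one of the target genes listed above. Those of Nfkbib were Trex1 (0.107), Aldoa and Stap2, and those of Nfkbie were Lrrc59 (0.185), Sec23b and Orm1. Nfkbiz was nearest to Herc6 (0.260), Snx10 and Gm7694, and Bcl3 to Hp (0.239), Arfgap3 and Hpx. Hp and Hpx encode the plasma proteins haptoglobin and hemopexin. Tnfaip3 was nearest to Gbp3 (0.248), Pfkfb3 and Hcar2, Tnip1 to Stx18 (0.234), Alyref and Flot2, and Cyld, whose profile was nearly flat (SD 0.343), to Tgs1 (0.0833), Commd8 and Esf1. None of the 8 genes was among the nearest 3 of another. Slc12a4, Prmt6, Lrrc59 and Stx18 overlap exons of a gene on the other strand, and Trex1, Herc6 and Gm7694 overlap one on the same strand. Within the group the closest pair was Nfkbia and Tnip1 (0.267) and the most distant was Tnfaip3 and Cyld (1.99), a description of 14 libraries that share their groups.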

How the data were processed

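Total RNA from 14 livers was sequenced on the BGISEQ-500 platform (single-end, 50 bases). The authors deposited TPM values, which sum to the same total in each library, for 17656 genes per library with 2 decimals. The submitters' processing notes name Bowtie2, RSEM 1.3.1 and build GRCm38.p6, while the study's methods name STAR, HTSeq and edgeR. Which of them made the TPM, and the strand setting, are not given in the sources used here. Read depth is unknown, so the spread between mice is the only error. The labels call the mice of a group independent biological replicates.

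Groups were taken from the labels. Genes whose TPM reached 1 in as many libraries as the smallest group holds were tested with limma 3.58.1 (R 4.3.3; lmFit, eBayes with trend) on log2(TPM + 1), with the libraries of the groups compared (all 14 for the interaction) and Benjamini-Hochberg adjustment over all genes tested. Log2 fold changes are differences of group means on that scale, and folds are ratios of mean TPM. Tests on simulated data with known changes were run before each comparison. Ratios within a library were tested by exact two-sided permutation (NumPy 2.4.6), adjusted over 6 tests. Alternatives were other pseudocounts (0.1), filters (TPM of 5, none), rescaling, robust eBayes, a replicate block, all libraries in a fit, and libraries left out.

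The 9 genes and all lists were chosen with earlier results of these data known. Other genes are named by rule: from each list, the 2 lowest p-values of KO against WT after ConA and the 2 lowest of ConA against saline in WT, the subunit and IKK genes, and the 3 nearest profiles. The report gives part of them. Gene identifiers were matched to RefSeq for 17604 of 17656 genes.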

Additional observations from a re-analysis of the deposited data

Results flagged for a closer look

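In the KO ConA group, the Nfkbie level of replicate 4 (7.87 TPM) lay far from those of the other 3 mice (11.23 to 11.66 TPM), with a gap of 0.887 of the group's range, past the critical value for a group of this size. It was the only flag among 22 groups of 4 libraries examined for the 9 genes and 2 within-library measures, and chance flags about 1 in 20 groups. Without this library Nfkbie was still called higher in KO ConA than in KO saline.

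The ConA response of Tnip1 was larger in KO than in WT by 0.96 on the log2 scale (interaction term, limma adjusted p = 0.0429), the only one of 8 genes tested for which the difference of the responses itself passed. Over 22 alternatives the value ranged from 0.74 to 1.09 and the limma adjusted p from 0.0267 to 0.125, and 7 of the 22 passed.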

How the results depend on the processing

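The count of 7 genes called after ConA kept its size within 1.5 times in both genotypes under every alternative run, as did the fall of the ratio of IkB to subunit mRNA (adjusted p between 0.00857 and 0.0300 over 16 alternatives), and no gene called by the tests as reported changed sign. Cyld was added without either ConA replicate 3 and, in KO, after rescaling (0.49, limma adjusted p = 0.0190), and Tnip3 was added in both genotypes without a filter.

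For KO saline against WT saline, the count of 2 called genes became 1 with a pseudocount of 0.1, with a filter at a TPM of 5 and after rescaling. It became 0 without a filter, with all 14 libraries in the fit and when WT saline replicates 2 and 3 were averaged. Leaving out a library gave 0 to 1. In the interaction the count of 1 became 0 without a filter, after rescaling and when these replicates were averaged. It was 0 to 2 with a library left out, where Nfkbia joined Tnip1 without WT ConA replicate 4 (0.66, limma adjusted p = 0.0379). The cause was not tested. The ratio of IkB to subunit mRNA in KO against WT passed only without KO saline replicate 2 (log2 difference -0.12, exact permutation, adjusted p = 0.0471), and its other leave-one-out values ranged up to -0.061. With the replicate number as a block the interaction count was 0 (Tnip1 limma adjusted p = 0.0635), and the block changed no other count of the 9 genes. Over all genes it moved the calls of KO ConA against WT ConA from 45 to 140. Deviations of same-numbered KO and WT libraries correlated at -0.007, 0.129, 0.405 and 0.115 for ConA replicates 1 to 4 and at 0.342, 0.229 and -0.002 for saline replicates 1 to 3, and those of ConA and saline libraries at -0.189 to 0.152. Not every pair was over 0.1, and 2 of 8 libraries (ConA) and 3 of 6 (saline) correlated best with their own number, so the labels' numbers were not used as pairs, and whether some numbers mark a shared batch is unknown.

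Rescaling moved the share of higher calls from 32.8% to 49.1% in KO saline against WT saline and from 80% to 48% in KO ConA against WT ConA, and the median interaction of all genes from 0.14 to 0.03, while the Tnip1 value went from 0.96 to 0.84. Genes under 1 TPM, such as Tnip3, are beyond what these values can compare.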
